A study of Mus musculus with 45 samples.

Results

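Established bulk induced myogenic progenitor cells (iMPCs) were compared with the mouse embryonic fibroblasts (MEFs) from which they derive. Members were taken by sample title, which gave 3 bulk iMPC libraries and 3 untreated MEF libraries, 6 of the 45 RNA-seq libraries of the series. Both groups carried the Pax7-nGFP reporter, a nuclear green fluorescent protein driven by the gene Pax7, on a C57BL6 and DBA2 background. The MEFs held a MyoD gene that doxycycline switches on, and were sampled without doxycycline. The iMPCs were made from such MEFs with doxycycline together with F/R/C, a small-molecule mixture whose letters the labels do not spell out, and were kept in medium with F/R/C. Their labels mention 13 days of doxycycline with F/R/C, while the series' design describes established clones that no longer need doxycycline. The labels do not say how many clones or embryos lie behind the 3 libraries of a group. Hence p-values, whose spread is pooled over the 45 libraries of the series, refer to differences between libraries. Library 3 of each group differed in sex from libraries 1 and 2 (values below) and so came from other cells. Differences between libraries 1 and 2 may be technical. Bulk primary myoblasts (3 libraries), which are muscle precursors grown from muscle, served as a reference for the fibroblast genes that remained.

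MyoD is a transcription factor of the basic helix-loop-helix family that binds short DNA sites called E-boxes and switches on muscle genes in fibroblasts. In muscle, Pax7 and Myf5 mark stem cells and early progenitors, MyoD marks activated myoblasts, and Myog and Myf6 accompany differentiation into fibres. Fibroblasts are known for making the extracellular matrix, such as type I and type III collagen and fibronectin, and for surface proteins such as Thy1 and the PDGF receptors. A bulk library averages over all cells, so fewer cells of a type and less RNA per cell cannot be told apart.

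The MEF libraries held 15.6 to 21.3 M reads and the bulk iMPC libraries 33.2 to 36.3 M. One library in each group stood apart. MEF library 1 was at least 2-fold above both other MEF libraries in 30 of the 42 sarcomere genes listed and in 14 of 20 proliferation genes, against 8.86% of all genes tested. Likewise, iMPC library 2 was at least 2-fold above both other iMPC libraries in 6 of 28 fibroblast identity genes, 5 of 20 collagens and 8 of 42 other matrix genes, against 6.02% of all genes tested. It was at least 2-fold below both in 1, 1 and 6 genes of these lists, against 5.02% of all genes tested. The list counts that changed without either library are given beside the results. The 4 deepest libraries of the series, which include all 3 bulk iMPC libraries, differed wholly from the other 41 in 270 genes; 151 of these are among the genes called below, and none belongs to a gene list used here. Libraries numbered 3 had 0 and 0.269 counts per 1000000 (CPM) of Xist, the X-inactivation RNA, and the other 4 had at least 264 CPM. Summed over 4 Y-linked genes, libraries numbered 3 had at least 158 CPM and the other 4 at most 3.12 CPM. The split by sex was thus the same in both groups.

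Of 17325 genes tested, 6142 (35.5%) differed between bulk iMPCs and MEFs with an adjusted p (Benjamini-Hochberg) below 0.05 and a change of at least 2-fold by edgeR's quasi-likelihood test. In the iMPCs 3331 genes were higher (19.2%) and 2811 were lower (16.2%); in what follows "rose" and "fell" mean these calls. Without MEF library 1 the test called 6167 of 17806 genes (34.6%), 3624 higher (20.4%) and 2543 lower (14.3%). Without iMPC library 2 it called 6405 of 17781 (36.0%). The libraries of the 2 groups did not overlap in 59.0% of the genes tested. The median log2 fold change over all genes was 0.08, so rises and falls are close to those relative to the typical gene. Among the rises 1232 exceeded a log2 fold change of 4, and 275 of the falls did so in the other direction. No MEF library had a read of 427 genes that rose, and no iMPC library had one of 25 genes that fell. The MEF libraries were shallower (15.6 to 21.3 M against 33.2 to 36.3 M reads), so a gene is more easily without a read there.

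**Figure D1:**
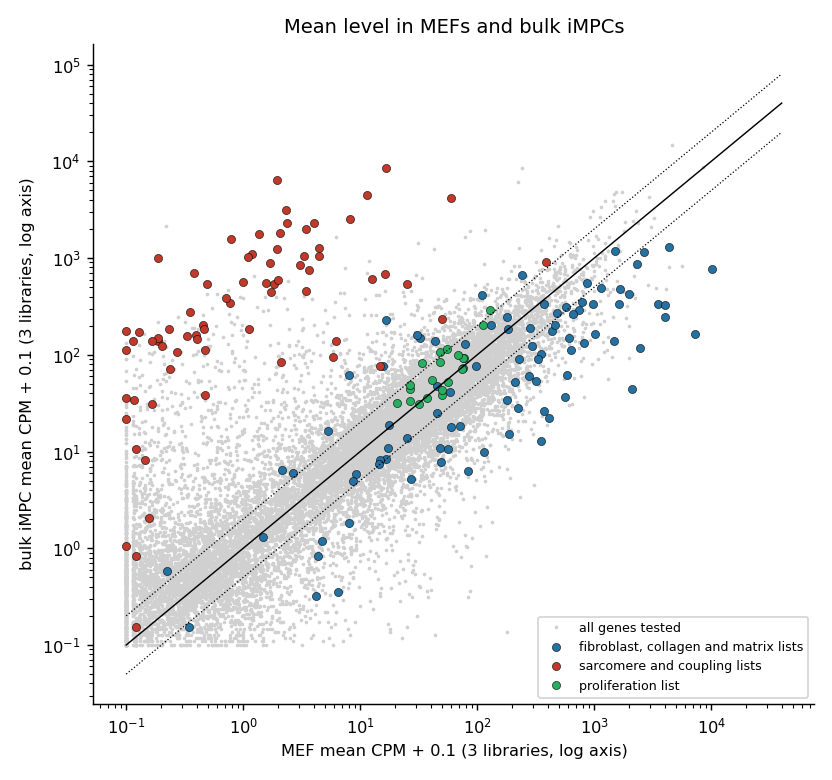
Mean CPM in bulk iMPCs against MEFs, 3 libraries each, on log axes with 0.1 added; the solid line marks equal levels and the dotted lines a 2-fold difference. Most sarcomere and coupling genes (red) lie far above the line, most fibroblast, collagen and matrix genes (blue) lie below it, and proliferation genes (green) lie close to it.

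All 4 myogenic regulatory factors and Pax7 rose. Myod1, which doxycycline switches on in these cells and which lies on chromosome 7 (46376474 to 46379099, GRCm38), had 8.84, 1.07 and 0.761 CPM in MEF libraries 1, 2 and 3, and 125, 92.9 and 120 CPM in iMPC libraries 1, 2 and 3. Every iMPC library was thus above every MEF library, and MEF library 1 was the highest of its group (log2 fold change 4.96 with SE 0.68, adjusted p 3.7e-07; without MEF library 1, 6.98, adjusted p 7.9e-09). Reads were assigned to the annotated gene alone, so transgene transcripts of the same sequence are counted with it. In bulk myoblasts Myod1 had 900, 315 and 819 CPM.

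Pax7 (chromosome 4, 139737062 to 139833528), the stem cell factor, had 1 read in all MEF libraries together. It reached 64.5, 39.4 and 81.3 CPM in the iMPCs, a ratio of 3725 with a counting interval from 668 to 147168 (adjusted p 2.6e-11). Myf5 (chromosome 10, 107482908 to 107486134), the factor that acts beside MyoD in progenitors, had no MEF read and 9.75, 22.04 and 53.9 CPM in the iMPCs. That is at least 576-fold higher than 3 reads over the MEF group would give (adjusted p 2.0e-08), and the iMPC libraries differed among themselves by more than 5-fold. Bulk myoblasts had 428, 401 and 639 CPM of Pax7 and 85.1, 78.1 and 76.2 CPM of Myf5, above each iMPC library in both genes (log2 fold change of iMPCs over myoblasts -2.99 and -1.48, adjusted p 1.3e-05 and 0.032).

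Myog, the factor that starts terminal differentiation, had 6.90 CPM in MEF library 1 and no read in MEF libraries 2 and 3, against 601, 471 and 673 CPM in the iMPCs (log2 fold change 7.93 with SE 1.02, adjusted p 1.3e-07; 3.9e-10 without MEF library 1). Myf6, which is known from maturing fibres, had 1 read in the MEFs and 77.3, 70.3 and 66.9 CPM in the iMPCs (ratio 4292, counting interval 770 to 169557). The iMPC libraries were close to each other in both genes. Of the 13 genes listed as myogenic regulators or fusion genes 12 rose and none fell, against 19.2% and 16.2% of all genes tested. All 13 rose without MEF library 1 or without iMPC library 2. Mymk, which encodes the membrane protein Myomaker needed for cell fusion, had 5.36, 0 and 0 CPM in MEFs and 520, 350 and 324 CPM in iMPCs. Mymx, its partner Myomixer, had 0.132, 0 and 0 CPM in MEFs and 46.2, 29.9 and 51.1 CPM in iMPCs. The one gene not called was Mef2d, a MADS-box transcription factor, at 193% of its MEF mean (159, 147 and 131 CPM against 318, 238 and 287 CPM; adjusted p 0.0031), just short of the 2-fold minimum; it passed in the fit without MEF library 1.

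**Figure D2:**
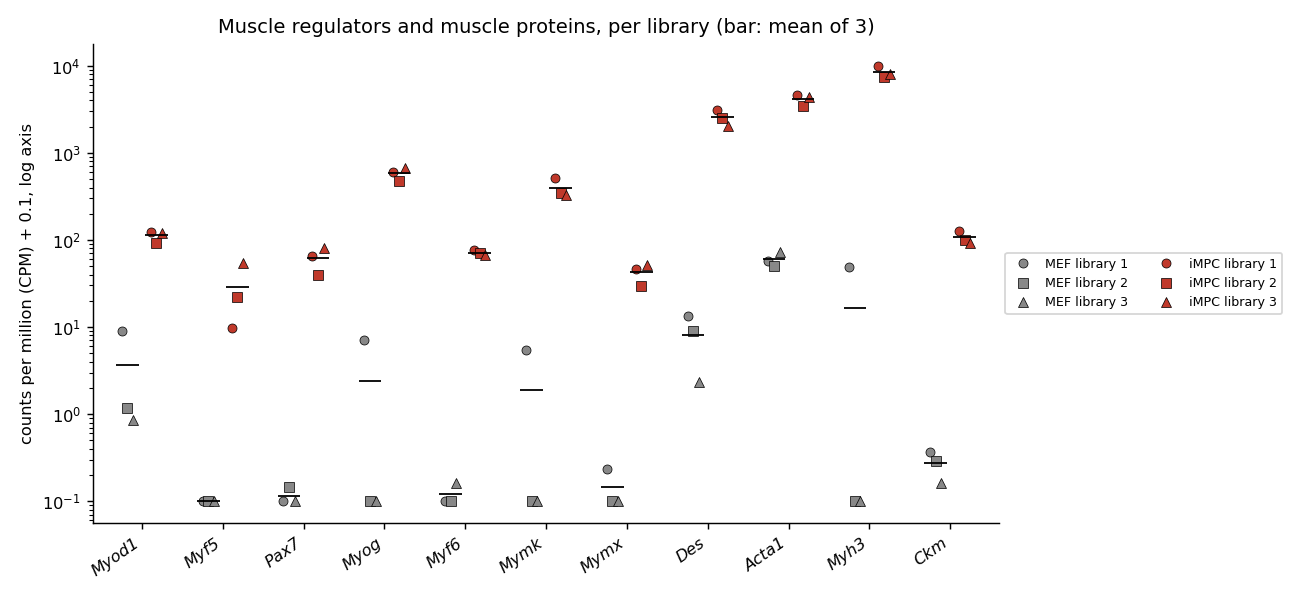
CPM, with 0.1 added and on a log axis, of 5 regulators, 2 fusion genes and 4 muscle proteins in each MEF (grey) and bulk iMPC library (red); bars are means of 3 libraries. Every iMPC library lies above every MEF library for each gene, and MEF library 1 (circle) alone carries Myog, Mymk and Myh3.

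The largest coordinated rise was in the muscle machinery. Of 42 sarcomere genes, which encode the contractile filaments and their anchors, 41 rose and none fell. All 29 genes of excitation-contraction coupling and muscle metabolism rose, against 19.2% of all genes tested. The summed sarcomere level was 282, 88.6 and 107 CPM in MEF libraries 1, 2 and 3, and 61955, 45437 and 49682 CPM in iMPC libraries 1, 2 and 3. The groups were thus far apart, and MEF library 1 stood above the other 2. Most of the level in MEF libraries 2 and 3 came from Acta1 and Ldb3: without these, the other 40 genes summed to 213, 20.4 and 17.0 CPM in the MEFs. Leaving out MEF library 1 or iMPC library 2 changed neither count. The median log2 fold change was 9.03 over the sarcomere genes, with genes at the floor set to their bound, and 8.76 over the coupling and metabolism genes, against 0.08 over all genes.

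Individual genes ran from a few-fold to the limit of what can be counted. Myh3, the embryonic myosin heavy chain, had 49.2, 0 and 0 CPM in MEFs and 10006, 7447 and 8144 CPM in iMPCs, and Myh8, the perinatal form, had 5.50, 0.0465 and 0 CPM in MEFs and 7331, 4780 and 7275 CPM in iMPCs. Both myosins are among the 5 genes that rose most in CPM. The adult fast form Myh1 also rose, from 3.65, 0.139 and 0 CPM to 2087, 1870 and 1349 CPM, as did the other adult fast forms Myh4 (357 to 953 CPM in iMPCs) and Myh2 (67.1 to 191 CPM). The slow form Myh7 reached 100 to 121 CPM. Acta1, skeletal alpha-actin, rose from 56.6, 50.3 and 72.5 CPM to 4652, 3483 and 4404 CPM (log2 fold change 6.13 with SE 0.83, adjusted p 3.1e-07), and Des, the muscle intermediate filament desmin, rose from 13.2, 8.78 and 2.22 CPM to 3088, 2525 and 2044 CPM. Ckm, muscle creatine kinase, stayed at or below 0.264 CPM in each MEF library and had 128, 101 and 91.8 CPM in the iMPCs. No overlap was seen in any of these. The sarcomere gene that was not called, the slow and cardiac light chain Myl3, had at most 0.0822 CPM in any of the 6 libraries, and its relative Myl2 rose to only 0.602, 0.620 and 0.995 CPM.

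Among the coupling and metabolism genes, 5 had no MEF read at all. They were the sodium channel Scn4a (215, 136 and 173 CPM in iMPCs, at least 3502-fold higher than 3 reads over the MEF group), the calcium buffer Pvalb (125, 140 and 71.6 CPM, at least 2237-fold), myoglobin Mb (39.2, 38.9 and 28.3 CPM, at least 708-fold), the mitochondrial creatine kinase Ckmt2 (20.04, 27.1 and 18.2 CPM, at least 435-fold), and Chrne. Casq1, the calcium store protein calsequestrin, had 6 MEF reads, all in library 1, and 1131, 1012 and 830 CPM in the iMPCs (log2 fold change 13.22 with SE 1.22, adjusted p 4.7e-10). Ryr1, the calcium release channel, went from 5.41, 0.232 and 0.0634 CPM to 762, 462 and 560 CPM. Chrng, the foetal subunit of the acetylcholine receptor, had 4.92, 0 and 0 CPM in MEFs and 518, 449 and 369 CPM in iMPCs, while Chrne, the adult subunit that replaces it, reached only 0.931, 1.16 and 0.807 CPM. The smallest rise was that of Atp2a2, the calcium pump of slow muscle and many other cells, from 365, 376 and 413 CPM to 946, 933 and 835 CPM (log2 fold change 1.24 with SE 0.26, adjusted p 0.00014).

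Promoters of the sarcomere genes are shown because these genes moved together and MyoD is known to bind E-boxes. In RefSeq (GRCm38.p6) windows from 250 bases before to 50 bases after the transcription start, CAGCTG, an E-box form that MyoD binds and that reads the same on both strands, was present for 13 of the 31 sarcomere genes with a window (41.9%). For the coupling and metabolism genes the count was 14 of 20 (70.0%). It was present for 18.3% of all 27025 genes of the table, 25.4% of the genes that rose and 20.2% of those that fell. The share was 34.6% in the other matrix list (9 of 26), most of whose members fell, 12.5% among the collagens (2 of 16), and none of 19 fibroblast identity genes had it. For 4 members the 250 bases before the start are printed 5′ to 3′ on the gene's strand, with CAGCTG in capitals; these have the highest iMPC means among the sarcomere genes with the motif there. A match is a description of the sequence, and binding was not measured.
Acta1 (chr8:123894776-123895025, minus strand): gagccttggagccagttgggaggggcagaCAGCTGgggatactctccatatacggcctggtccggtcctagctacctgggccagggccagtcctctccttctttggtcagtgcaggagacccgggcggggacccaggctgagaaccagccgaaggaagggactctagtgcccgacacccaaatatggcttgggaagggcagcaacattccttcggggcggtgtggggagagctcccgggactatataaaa
Myl1 (chr1:66945057-66945306, minus strand): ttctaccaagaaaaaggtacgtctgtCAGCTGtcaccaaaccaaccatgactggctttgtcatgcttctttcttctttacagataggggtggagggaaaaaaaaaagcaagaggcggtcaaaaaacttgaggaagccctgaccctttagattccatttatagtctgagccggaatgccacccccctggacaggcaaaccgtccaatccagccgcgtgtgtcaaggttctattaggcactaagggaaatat
Des (chr1:75360042-75360291, plus strand): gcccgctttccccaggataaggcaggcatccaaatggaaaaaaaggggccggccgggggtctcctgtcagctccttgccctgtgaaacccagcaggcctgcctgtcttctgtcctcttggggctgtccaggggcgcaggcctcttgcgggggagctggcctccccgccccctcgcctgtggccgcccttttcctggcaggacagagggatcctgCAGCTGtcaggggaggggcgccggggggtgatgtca
Mylpf (chr7:127211358-127211607, plus strand): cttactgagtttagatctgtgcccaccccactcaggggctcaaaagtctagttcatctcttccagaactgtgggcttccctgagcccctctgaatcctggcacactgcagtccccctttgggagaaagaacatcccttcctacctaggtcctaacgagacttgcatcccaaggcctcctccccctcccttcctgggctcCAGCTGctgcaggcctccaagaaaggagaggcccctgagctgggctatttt

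Genes of muscle stem cells and progenitors rose less uniformly. Of 30 listed, 17 rose (56.7%), 3 fell (10.0%) and 10 were not called, against 19.2% higher and 16.2% lower over all genes tested. The median log2 fold change was 1.28 (genes at the floor at their bound). Besides Pax7 and Myf5, large rises were seen in Fgfr4, an FGF receptor of myoblasts (0.264, 0 and 0.0634 CPM in MEFs, 103, 85.4 and 231 CPM in iMPCs), and in Cdh15, M-cadherin (10.9, 0.372 and 0.127 CPM, then 484, 270 and 367 CPM). The Notch target Heyl rose from at most 0.659 CPM to 76.5, 30.1 and 117 CPM, and its relative Hey1 rose too, whereas Hes1, another Notch target, had 20.1, 21.4 and 35.4 CPM in MEFs and 27.6, 22.7 and 32.0 CPM in iMPCs (adjusted p 0.73). Itga7, the laminin receptor subunit of muscle, had the highest mean level of the list; it rose from 62.2, 155 and 126 CPM to 984, 773 and 839 CPM (log2 fold change 2.92 with SE 0.45, adjusted p 2.3e-06). The 3 genes that fell were Tenm4, a teneurin (173, 447 and 289 CPM, then 24.1, 12.5 and 23.6 CPM), Fgfr1 (317, 457 and 420 CPM, then 180, 150 and 170 CPM) and Sdc3, a syndecan (152, 229 and 290 CPM, then 78.5, 32.8 and 77.2 CPM). The fall of Sdc3 was lost without iMPC library 2 (adjusted p 0.082). Pax3, the embryonic relative of Pax7, stayed at or below 0.571 CPM in all 6 libraries, and Calcr, the calcitonin receptor of quiescent stem cells, at or below 0.161 CPM.

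Proliferation genes overlapped between the groups. Mki67, which marks cycling cells, had 204, 65.1 and 69.1 CPM in MEFs and 110, 303 and 190 CPM in iMPCs (log2 fold change 0.83 with SE 0.60, adjusted p 0.24). MEF library 1 was thus above iMPC libraries 1 and 3, and the other MEF libraries were below all 3 iMPC libraries. Of 20 genes listed only the mitotic kinesin Kif11 rose (5.0%, against 19.2% of all genes tested), at adjusted p 0.041. It was not called without any 1 of 4 libraries (adjusted p 0.061 to 0.16). Without MEF library 1, 6 of the 20 rose, among them Mki67 (log2 fold change 1.66, adjusted p 0.044) and Top2a (1.90, adjusted p 0.023), and without iMPC library 2 none did. Among 12 genes of cell cycle arrest 5 rose and 3 fell (7 rose without MEF library 1 and 4 without iMPC library 2). Cdkn1c, an inhibitor of cyclin-dependent kinases known from differentiating muscle, rose from 54.1, 18.0 and 17.6 CPM to 704, 470 and 827 CPM (log2 fold change 4.48 with SE 0.91, adjusted p 0.00011). Rb1 and Gadd45a rose as well. Those that fell were Cdkn2a (110, 279 and 206 CPM, then 43.1, 78.1 and 29.7 CPM), Cdkn2b and Trp53, which are linked to stress and senescence.

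On the fibroblast side, the 12 genes of the panel split. Thy1, Col1a1, Col1a2, Fn1, Twist2 and Lum fell, and Col3a1, Postn, Pdgfra, Pdgfrb, Prrx1 and Dcn were not called. Col1a1 (chromosome 11, 94936224 to 94953042), a chain of type I collagen, had 4817, 3647 and 3496 CPM in MEFs and 264, 252 and 227 CPM in iMPCs. The iMPC libraries lay close together at 6.21% of the MEF mean (log2 fold change -4.01 with SE 0.82, adjusted p 0.00014). Col1a2, the other chain, fell from 3652, 3387 and 3396 CPM to 98.8, 582 and 324 CPM, so that the iMPC libraries differed more than 5-fold among themselves (9.63% left; log2 fold change -3.38 with SE 1.02, adjusted p 0.0058). Fn1, fibronectin, fell from 5681, 10020 and 14748 CPM to 783, 910 and 627 CPM, which was the largest fall in CPM of all genes. Thy1, a surface glycoprotein, fell from 1236, 1521 and 1635 CPM to 116, 126 and 171 CPM (9.41% left). The deposited names of both groups carry the word Thy1, which the labels do not explain. Whether cells were selected on this protein is not given in the sources used here, so its levels are given as a description. Twist2, a mesenchymal transcription factor, fell from 76.5, 150 and 115 CPM to 10.5, 17.8 and 1.02 CPM. For these 5 genes no iMPC library reached a MEF library. Lum, the proteoglycan lumican, is different: its MEF values were 221, 20.8 and 7.16 CPM and its iMPC values 10.2, 3.75 and 4.54 CPM. The groups overlapped, and the fall (adjusted p 0.019) was not called without MEF library 1 (log2 fold change -1.13, adjusted p 0.47), nor without iMPC library 2 or 3 (adjusted p 0.067 and 0.069).

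**Figure D3:**
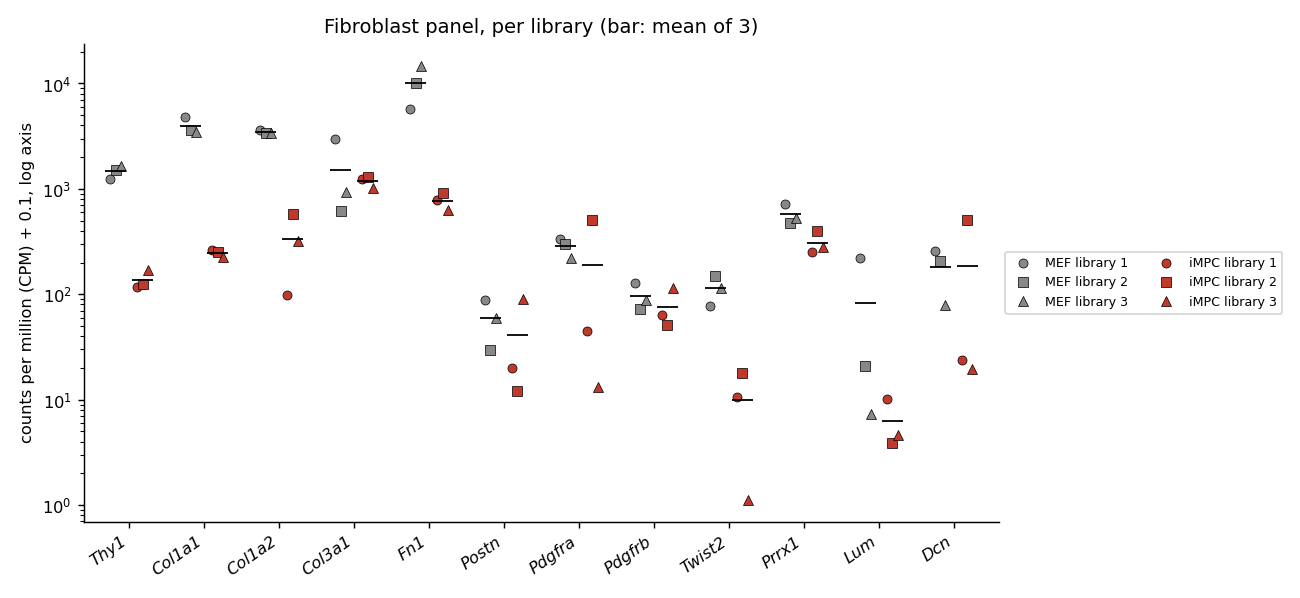
CPM, with 0.1 added and on a log axis, of the 12 fibroblast panel genes in each MEF (grey) and bulk iMPC library (red); bars are means of 3 libraries. Thy1, Col1a1, Col1a2, Fn1 and Twist2 are separated, Col3a1 and Pdgfrb overlap, and iMPC library 2 (square) lies far above the other iMPC libraries for Pdgfra and Dcn.

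Type III collagen showed no fall that the libraries could support. Col3a1 (chromosome 1, 45311538 to 45349706) had 2974, 612 and 926 CPM in MEFs and 1235, 1296 and 1009 CPM in iMPCs. The iMPC libraries all lay above MEF libraries 2 and 3 and below MEF library 1 (log2 fold change -0.35, SE 0.52, 95% interval -1.41 to 0.71, adjusted p 0.59). Without MEF library 1 the fold change turned to 0.68 (adjusted p 0.29). Prrx1, a mesenchymal homeobox factor, had 724, 477 and 529 CPM in MEFs and 250, 395 and 283 CPM in iMPCs, 53.7% of the MEF mean. Its groups did not overlap, yet it was not called (adjusted p 0.078). Pdgfrb, a receptor of platelet-derived growth factor, had 128, 73.0 and 89.0 CPM in MEFs and 62.8, 50.9 and 114 CPM in iMPCs, which overlapped (adjusted p 0.70). Postn, the matrix protein periostin, had 87.6, 29.4 and 59.9 CPM in MEFs and 19.9, 12 and 90.7 CPM in iMPCs, with iMPC library 3 above every MEF library.

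In 2 panel genes the iMPC mean rested on a single library. Pdgfra, the other PDGF receptor, had 331, 302 and 220 CPM in MEFs and 44.3, 509 and 13.2 CPM in iMPCs, and Dcn, the proteoglycan decorin, had 259, 207 and 78.7 CPM in MEFs and 23.5, 511 and 19.5 CPM in iMPCs. In both genes iMPC library 2 was above every MEF library and iMPC libraries 1 and 3 were below every MEF library. Without iMPC library 2 Pdgfra fell (log2 fold change -3.25, adjusted p 0.018), and Dcn had a log2 fold change of -3.02 (adjusted p 0.074) in place of 0.02.

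In the lists, matrix genes fell most often. Of 28 fibroblast identity genes tested 10 fell and 4 rose, and of 20 collagens 9 fell and 3 rose. Of 42 other matrix genes 27 fell and 1 rose, and of 16 genes of contractile fibroblasts and smooth muscle 9 fell and 2 rose. Each list had a larger share that fell and a smaller share that rose than all genes tested, of which 16.2% fell and 19.2% rose. Without MEF library 1 the numbers that fell were 9, 9, 23 and 8, and without iMPC library 2 they were 14, 10, 25 and 8. Summed over each list, the iMPC mean was 35.6% of the MEF mean for fibroblast identity, 34.0% for collagens, 15.4% for other matrix and 52.2% for the contractile list. The ranges of these sums did not overlap: the collagens summed to 16210 to 20354 CPM in MEFs and 5506 to 7397 CPM in iMPCs, and the other matrix genes to 29421 to 52277 CPM and 5043 to 7304 CPM. The median log2 fold change was -0.86, -1.28, -2.06 and -1.69 in that order.

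Among the falls, Fbln2, an elastic fibre protein, had the largest in the matrix list (1225, 2131 and 2906 CPM, then 38.2, 48.4 and 44.7 CPM; 2.10% left). Thbs1, the matrix glycoprotein thrombospondin, fell from 4938, 6028 and 10929 CPM to 296, 62.04 and 132 CPM, and Tnc, tenascin C, fell from 2618, 4191 and 5346 CPM to 295, 449 and 232 CPM. The small proteoglycan Bgn went from 1750, 2199 and 3463 CPM to 132, 19.6 and 204 CPM. S100a4, a calcium-binding protein used as a fibroblast marker, fell from 455, 483 and 760 CPM to 33.9, 61.4 and 15 CPM. Vim, the mesenchymal intermediate filament vimentin, fell to 29.6% of its MEF mean but still had 1072, 1920 and 888 CPM in iMPCs. Acta2, smooth muscle actin, fell from 1672, 2312 and 2386 CPM to 299.8, 545 and 438 CPM, and Tagln, a smooth muscle actin-binding protein, from 713, 1566 and 1650 CPM to 48.5, 53.4 and 66.4 CPM. No library of one group overlapped the other in these genes.

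The level that remained was followed in 6 lists: fibroblast identity, collagens, other matrix, contractile genes, Hox genes and other positional regulators. Of their 171 genes 110 had a MEF mean of at least 10 CPM. In the iMPCs 63 of these fell and 47 did not, of which 9 rose and 38 were not called. The 63 genes that fell kept a median of 17.0% of their MEF mean (range 2.10% to 45.1%); 20 kept under 10%, and 15 kept over 25%. Falling did not mean absence, as 50 of the 63 still had an iMPC mean of at least 10 CPM and 25 of at least 100 CPM. The 47 genes that did not fall comprised 12 of fibroblast identity, 9 collagens, 13 other matrix genes, 5 contractile genes, 4 Hox genes and 4 positional regulators. MEF and iMPC libraries overlapped in 21 of the 47, a share near that of all genes tested, of which 59.0% did not overlap. Not being called lower does not show that a level held, since the 95% interval excluded a 2-fold fall in only 7 of the 38 uncalled genes and a 4-fold fall in 21.

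**Figure D4:**
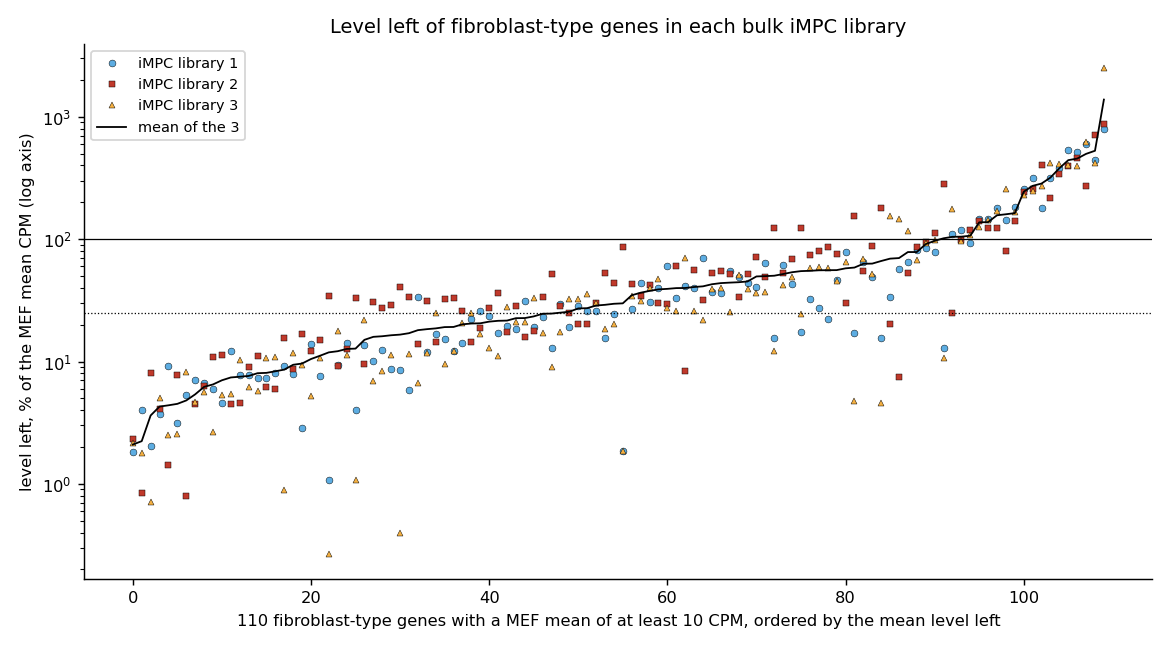
Level left in each bulk iMPC library as a percentage of the MEF mean (log axis) for the 110 fibroblast-type genes with a MEF mean of at least 10 CPM, ordered by the mean of the 3 iMPC libraries (line); the solid rule marks 100% and the dotted rule 25%. The genes form a continuous range, and iMPC library 2 (squares) lies far above libraries 1 and 3 in several genes.

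None of the 3 chains of collagen VI was called. They form the microfilaments around mesenchymal and muscle cells. Col6a1 had 896, 895 and 806 CPM in MEFs and 427, 764 and 449 CPM in iMPCs, Col6a2 had 592, 467 and 381 CPM and then 223, 363 and 218 CPM, and Col6a3 had 537, 179 and 395 CPM and then 314, 353 and 345 CPM. The first 2 chains did not overlap between the groups, and the third did (adjusted p 0.44, 0.32 and 0.92). Of the genes that rose, Col15a1, a basement membrane collagen, went from 30.6, 3.02 and 15.8 CPM to 130, 143 and 410 CPM (log2 fold change 3.79 with SE 0.90, adjusted p 0.00065), and Col5a3, a minor fibrillar collagen, and Col18a1, another basement membrane collagen, rose as well. The rise of Col5a3 was not called without MEF library 2 (adjusted p 0.054). The rise of Col18a1 (adjusted p 0.043) was not called without any 1 of 3 libraries (adjusted p 0.095 to 0.13). Runx1, a transcription factor, rose from 24.0, 31.8 and 42.1 CPM to 167, 149 and 129 CPM, Tbx15, a T-box factor of muscle and connective tissue, from 160, 75.3 and 94.3 CPM to 423, 375 and 453 CPM, and Zeb2, an E-box-binding repressor, from 40.7, 42.7 and 48.1 CPM to 139, 95.4 and 184 CPM. Its relative Zeb1 was not called (154, 115 and 123 CPM, then 233, 161 and 220 CPM; adjusted p 0.070). The proteoglycan gene Ogn and the limb homeobox gene Shox2 rose, Shox2 not without MEF library 2 or iMPC library 2 (adjusted p 0.12 and 0.10). Fap, a fibroblast protease with a MEF mean under 10 CPM, also rose, from 15.9, 1.91 and 5.83 CPM to 44.8, 84.6 and 54.8 CPM.

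Some of these genes have known roles in muscle too. Tpm2, a tropomyosin of skeletal and smooth muscle, rose from 389, 537 and 542 CPM to 2596, 1933 and 1961 CPM, and Tpm1, of which muscle and fibroblasts use different isoforms, had 1287, 2019 and 2132 CPM and then 2160, 1778 and 1760 CPM. Sums over transcripts do not tell such isoforms apart. The cytoskeletal tropomyosin Tpm4, by contrast, fell from 792, 1115 and 550 CPM to 26.0, 64.0 and 20.8 CPM. Collagen-modifying enzymes divided as well: the hydroxylases P4ha1 (169, 170 and 203 CPM, then 265, 253 and 225 CPM) and Plod2 (63.4, 70.1 and 104 CPM, then 144, 112 and 131 CPM) did not fall, the crosslinking enzymes Lox (173, 250 and 467 CPM, then 207, 94.3 and 64.8 CPM) and Loxl2 (576, 608 and 786 CPM, then 216, 398 and 171 CPM) were not called (adjusted p 0.10 for Loxl2, and 0.016 with only the 6 libraries fitted), and their relative Loxl3 fell to 5.39% of its MEF mean.

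The other members of the 47 were not called. Among transcription factors, Snai1 had 17.5, 15.5 and 18.5 CPM in MEFs and 11.2, 9.41 and 11.8 CPM in iMPCs, without overlap (adjusted p 0.037, at a change short of 2-fold). Tbx18, a T-box factor, overlapped at 19.5, 14.3 and 19.3 CPM and 16.6, 20.9 and 19.2 CPM. Prrx2, the relative of Prrx1, had 12.8, 12.4 and 24.0 CPM and then 10.5, 8.03 and 6.02 CPM, and Ebf1, Emx2, Tbx3, Hoxa7 and Hoxd8 had iMPC means of 51.9% (Emx2) to 244% (Tbx3) of the MEF mean. In the matrix list the proteoglycan Vcan, versican, had 694, 308 and 382 CPM and then 252, 241 and 118 CPM, a lower range that was not called (adjusted p 0.063) but was by DESeq2 (0.049) and with only the 6 libraries fitted (0.048). Mmp2, a gelatinase, did likewise, with 643, 123 and 225 CPM and then 94.7, 67.2 and 107 CPM (adjusted p 0.056, against 0.031 by DESeq2 and 0.036 with only the 6 libraries fitted). Tbx3 was called higher by DESeq2 (adjusted p 0.046) and in the 6 libraries (0.0012), against 0.061. Fbln1, an elastic fibre protein (126, 57.6 and 41.3 CPM, then 59.4, 85.0 and 73.7 CPM), Adamts2, a procollagen protease (52.3, 41.6 and 42.6 CPM, then 50.4, 11.4 and 80.8 CPM), and Timp3, a protease inhibitor (150, 263 and 266 CPM, then 94.6, 18.9 and 157 CPM), overlapped. In the contractile list Smtn, smoothelin, had 74.9, 71.3 and 54.5 CPM and then 98.1, 82.7 and 95.6 CPM, Tagln2, a widely made relative of Tagln, had 347, 401 and 379 CPM and then 154, 268 and 137 CPM (adjusted p 0.073, and 0.020 with only the 6 libraries fitted), and Myh11, smooth muscle myosin, had 17.7, 27.6 and 33.2 CPM and then 15, 1.95 and 38.1 CPM.

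The 47 genes were not held equally by the 3 iMPC libraries. In 35 of them each iMPC library had at least 25% of the MEF mean. In 6, Pdgfra, Twist1, Col11a1, Col27a1, Dcn and Hoxa10, libraries 1 and 3 were both under 25% and library 2 alone was above it. Col11a1, a fibrillar collagen of cartilage, had 56.8, 38.0 and 82.6 CPM in MEFs and 1.10, 50.8 and 1.10 CPM in iMPCs. Twist1, a mesenchymal transcription factor, had 35.4, 20.1 and 19.2 CPM and then 4.35, 30.4 and 6.10 CPM. Without iMPC library 2, 7 of the 47 fell: Col11a1, Col27a1, Fbn2, Hoxa10, Pdgfra, Tagln2 and Twist1. In turn 8 genes that had fallen were no longer called, and 40 of the 47 remained. Over all 110 genes library 2 was at least 2-fold above both others in 22, library 1 in 6 and library 3 in 3. Over all genes tested the shares were 6.02%, 3.19% and 2.72% for libraries 2, 1 and 3. Library 2 was at least 2-fold below both others in 6 of 42 other matrix genes and 2 of 16 contractile genes. The same held for 1 of 28 fibroblast identity genes and 1 of 20 collagens, against 5.02% of all genes tested. Stmn2, a neuronal protein, was also high in library 2 (16.5, 201 and 9.44 CPM), while sarcomere genes were not: library 2 was at least 2-fold above both others in none of the 42. The part of any mixture of cells in these values was not tested. Without MEF library 1, 46 of the 47 were still not lower, Emx2 fell, and 6 genes joined them (Cnn1, Fbn1, Hoxd13, Lhx9, Lum and Osr1), which makes 52.

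Bulk primary myoblasts gave a reference for a muscle culture that does not derive from MEFs. They differed from bulk iMPCs in 3396 of 17325 genes (19.6%), with 1888 higher in iMPCs (10.9%) and 1508 lower (8.7%). Of the 110 genes 51 were higher in iMPCs than in myoblasts (46.4%) and 14 were lower (12.7%). Within the fibroblast-type lists the 110 were picked by MEF level alone. The lists themselves were chosen with earlier results of these data known, so these shares are not an independent test. Of the 47 that had not fallen, 28 were higher in iMPCs and 1, Prrx2, was lower; these were chosen by iMPC level, so that count is given as a description. Myoblast library 3 stood apart, with 376 CPM of Myh3 against 13501 and 6821 CPM, and the comparison of only these 6 libraries called 1265 genes.

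In 11 of the 47 genes the myoblast mean was under 1 CPM. These were Pdgfra, Pdgfrb, Twist1, Col6a2, Col6a3, Col11a1, Col15a1, Dcn, Myh11, Hoxb7 and Alx4. Pdgfrb had 0.404, 1.28 and 0.291 CPM in myoblasts, below each iMPC library (log2 fold change of iMPCs over myoblasts 6.75, SE 0.98, adjusted p 5.2e-06). For Col6a1 the myoblasts had 2.42, 6.09 and 8.08 CPM (6.62, SE 0.90, adjusted p 2.2e-06). Col1a1, which had fallen from MEFs, was at 0.314, 2.05 and 0.400 CPM in myoblasts and thus still lower there than in any iMPC library. Col3a1 was closer, at 418, 268 and 287 CPM in myoblasts (log2 fold change 1.86 with SE 0.54, adjusted p 0.0079). Others overlapped between the cultures and were not called: Zeb2 had 116, 124 and 151 CPM in myoblasts (log2 fold change 0.10, SE 0.18), and Col18a1 had 702, 599 and 922 CPM (log2 fold change -0.16, SE 0.59).

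The sorted Pax7-nGFP-positive iMPCs of the series show which of the 47 genes were also found in Pax7-positive cells. These libraries were quantified with another fragment-length setting (180.03 against 152.81 bases of difference between length and effective length), so values are set side by side without a test. All 3 sorted libraries had at least 10 CPM for 26 of the 47 genes. Col3a1 had 940, 939 and 329 CPM there, Prrx1 271, 310 and 202 CPM, Pdgfrb 122, 135 and 53.3 CPM, and the microfibril gene Fbn2 173, 117 and 106 CPM. By contrast Dcn had 32.2, 0.970 and 2.17 CPM and Pdgfra 21.5, 1.09 and 0.0517 CPM, below their MEF levels in each sorted library. Col6a3 had 62.3, 95.6 and 2.43 CPM. Thus Col3a1, Prrx1 and Pdgfrb were present in each sorted library, while Dcn and Pdgfra were at or below 2.17 CPM in 2 of the 3.

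**Figure D5:**
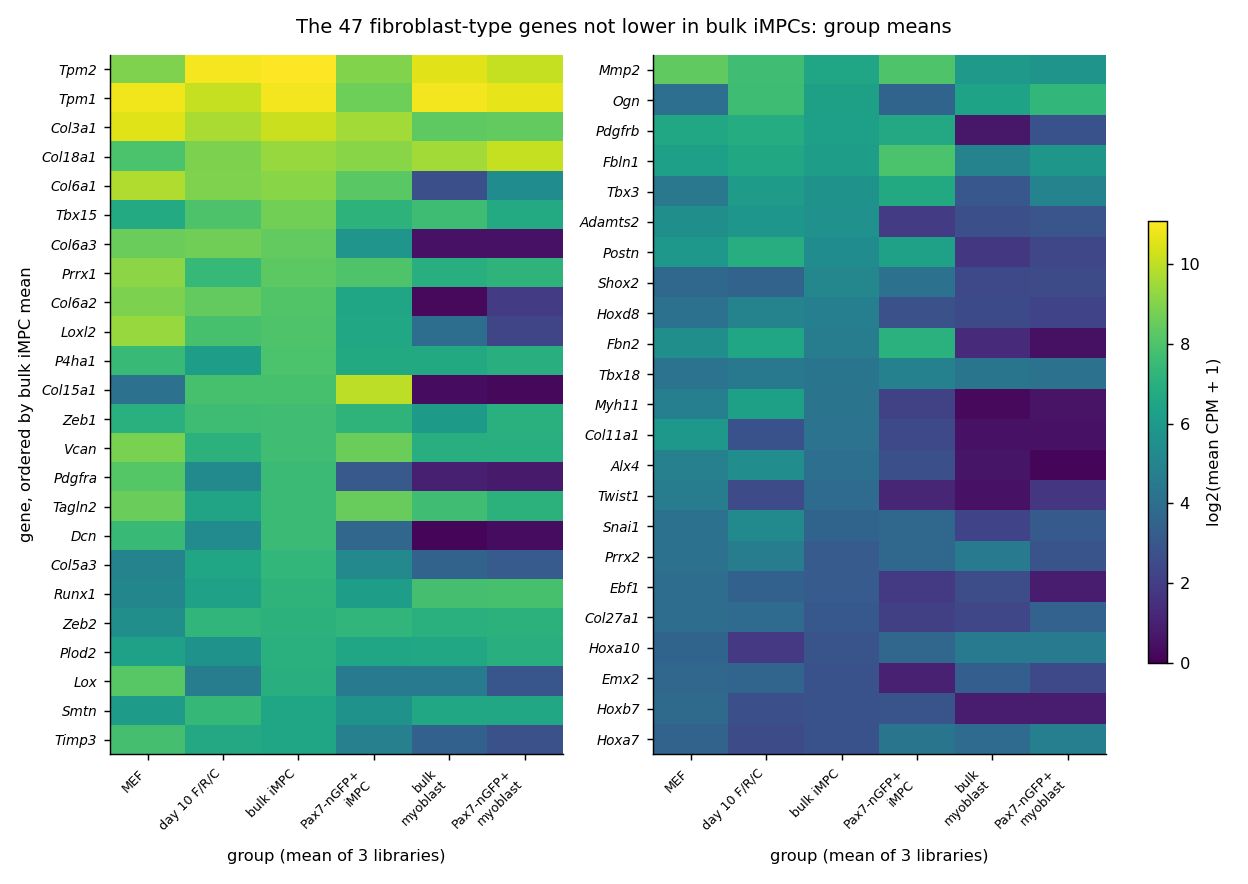
Mean level, as log2 of mean CPM plus 1, of the 47 fibroblast-type genes that were not lower in bulk iMPCs, in MEFs, day 10 of MyoD with F/R/C, bulk iMPCs, sorted Pax7-nGFP-positive iMPCs, bulk myoblasts and sorted Pax7-nGFP-positive myoblasts (3 libraries each). Col6a3, Col15a1, Dcn and Pdgfra are near 0 in both myoblast groups, and Dcn and Pdgfra are also lower in the sorted than in the bulk iMPCs.

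Signalling lists held genes that rose and genes that fell, against 19.2% higher and 16.2% lower over all genes tested. Among 20 genes that respond to or carry TGF-beta signals, which promote matrix production in fibroblasts, 12 fell and 5 rose (9 fell without iMPC library 2, and 4 rose without MEF library 1). Ccn2, a matrix-linked target, fell from 73.4, 255 and 437 CPM to 24.7, 8.96 and 28.3 CPM. The genes that rose were the ligands Tgfb2 (17.9, 3.95 and 9.57 CPM, then 86.6, 107 and 112 CPM) and Tgfb3, the receptor Tgfbr1, Id2, and Bhlhe40 (adjusted p 0.052 and 0.054 without MEF library 1 or 2). Of 12 Wnt response genes 6 rose and 3 fell. Axin2, a feedback inhibitor and common readout, rose from 1.36, 0.418 and 0.507 CPM to 11.5, 6.65 and 11.9 CPM. The Wnt antagonist Dkk2 fell from 250, 885 and 695 CPM to 3.18, 85.5 and 2.90 CPM. The others that fell were Apcdd1 (log2 fold change -4.054, adjusted p 7.6e-06) and Ccnd1 (log2 fold change -2.185, adjusted p 0.0001). All 15 Wnt response genes listed summed to 1092 to 2425 CPM in MEFs and 318 to 504 CPM in iMPCs. Among 15 cAMP response genes 3 rose (20.0%), 3 fell (20.0%) and 9 were not called, shares near those of all genes. The kinase Sik1 rose most (37.4, 21.7 and 22.6 CPM, then 330, 177 and 284 CPM), and the nuclear receptors Nr4a1 and Nr4a2 and the AP-1 subunit Fosb fell.

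Hox genes, which record the position of a cell along the body and limb axes, fell in 16 of 38 tested (42.1%, against 16.2% of all genes) and rose in 2, Hoxa4 and Hoxb13, both at low level (at most 3.93 CPM; the rise of Hoxa4 was not called without iMPC library 3, adjusted p 0.063). Hoxb9 had 47.1, 134 and 77.1 CPM in MEFs and 26.9, 13.6 and 17.9 CPM in iMPCs, a fall that was not called without MEF library 2 or iMPC library 2 (adjusted p 0.081 and 0.055). Hoxc8, another trunk-level gene, had 24.8, 99.1 and 53.5 CPM in MEFs and then 11.5, 10.2 and 16.6 CPM. The 5′ HoxD genes, which pattern the distal limb, were highest in MEF library 1: Hoxd13 had 85.6, 8.55 and 7.04 CPM in MEFs and 2.90, 13.8 and 0.134 CPM in iMPCs, so that the groups overlapped. Its fall was not called without MEF library 1 (log2 fold change -0.41, adjusted p 0.76) or without iMPC library 1 or 3 (adjusted p 0.12 for both). Without MEF library 1 the number of Hox genes that fell was 11, and without iMPC library 2 it was 14. Among 23 other positional regulators 6 fell (26.1%) and 5 rose (21.7%, or 4 genes without iMPC library 2), against 16.2% and 19.2% of all genes. Their summed level overlapped between the groups, at 127 to 161 CPM in MEFs and 160 to 174 CPM in iMPCs. Tbx5, a forelimb factor, fell from 21.3, 6.37 and 7.93 CPM to 1.10, 0.169 and 0.296 CPM.

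Markers of other cell types were low in both groups, with some exceptions. For the counts called, 19.2% of all genes tested rose and 16.2% fell. Shares in the epithelial list (20.0% and 20.0%) and the cartilage and bone list (16.7% and 16.7%) were near these. So was the 16.7% that rose among adipocyte markers. Larger shares rose among blood (50.0%), mesothelial (75.0%), neural (37.5%) and pluripotency markers (50.0%), of which only 4, 4, 8 and 2 were tested. None of 7 endothelial markers was called (2 fell without iMPC library 2). Of 4 blood markers tested 2 rose, among them Laptm5 (adjusted p 0.00036), and 1, Cd68, fell. Of 5 epithelial markers 1 rose (Cdh1, adjusted p 2.8e-06) and 1 fell (Krt18, adjusted p 0.00048). Of 6 adipocyte markers 1 rose (Lpl, not without iMPC library 3, adjusted p 0.072) and 1 fell without iMPC library 2. Of 6 cartilage and bone markers 1 rose (Alpl, at most 1.77 CPM) and 1 fell (Runx2). The fall of Cd68 (adjusted p 0.033) was lost without MEF library 1 or 2 (0.085 and 0.21) and without iMPC library 2 or 3 (0.19 and 0.063). The fall of Runx2 was called without iMPC library 2 and lost without any other library (adjusted p 0.054 to 0.17). The blood cell markers Ptprc, Adgre1, Tyrobp and C1qa had at most 0.127 CPM in any of the 6 libraries, and the epithelial markers Epcam and Krt14 at most 0.986 CPM. The pluripotency genes Pou5f1 and Nanog had at most 0.317 CPM, whereas 1 of the 2 pluripotency markers tested, Esrrb, rose (adjusted p 2e-06). The 7 pluripotency genes listed summed to 0.139 to 0.317 CPM in MEFs and 2.47 to 4.65 CPM in iMPCs. Summed levels in MEFs and iMPCs were 8.40 to 31.8 and 7.36 to 21.8 CPM for the endothelial list, 5.83 to 11.7 and 5.44 to 12.5 CPM for the blood list, and 29.1 to 44.7 and 7.10 to 17.7 CPM for the epithelial list. Adipocyte markers summed to 26.8 to 41.9 CPM in MEFs and 76.6 to 196 CPM in iMPCs, most of it Lpl, a lipase also made by muscle. Of 4 mesothelial markers tested 3 rose (Msln, Upk1b and Lrrn4), and 2 did without MEF library 1. These markers summed to 11.9 to 48.6 CPM in MEFs and 250.1 to 489 CPM in iMPCs, nearly all of it Msln, mesothelin (48.2, 34.6 and 10.7 CPM, then 443, 215 and 274 CPM; log2 fold change 3.31 with SE 0.99, adjusted p 0.0052). Upk1b rose from 0.0879, 0.558 and 1.14 CPM to 44.2, 34.2 and 16.8 CPM, and Lrrn4, Upk3b and Wt1 were at or below 0.821 CPM in all 6 libraries. Of 8 neural markers tested 3 rose (Nes, Tubb3 and Ngfr) and 2 fell (Gap43 and Elavl4), and 5 rose without MEF library 1 or without iMPC library 2. Gap43 went from 171, 227 and 86.4 CPM to 10.4, 41.4 and 0.753 CPM, a fall not called without iMPC library 1 or 3 (adjusted p 0.057 and 0.061), and that of Elavl4 was not called without MEF library 2 (0.17). Nes, an intermediate filament also found in muscle precursors, rose from 129, 42.3 and 66.3 CPM to 1912, 1496 and 1488 CPM and made up most of the list's sum (191 to 349 CPM in MEFs, 1556 to 1991 CPM in iMPCs). The part of such cells in the results above was not tested.

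Over all protein-coding genes with at least 10 CPM in the higher group and no overlap, the 8 largest fitted log2 fold changes upward were those of Scn4a, Frem2, Pvalb, B3galt2, Apobec2, Car3, Ppp1r3a and Casq1. Frem2, a matrix protein, B3galt2, a galactosyltransferase, Apobec2, a muscle member of the cytidine deaminase family, and Ppp1r3a, the muscle subunit of a glycogen-associated phosphatase, had no MEF read and were at least 2672-, 1804-, 1796- and 1364-fold higher. Only this bound is measured for such genes, so their place among the largest rises is not fixed. Car3, carbonic anhydrase of slow muscle, had 8 MEF reads, all in library 1, and 2614, 2093 and 1750 CPM in iMPCs. The 8 largest fitted falls were those of Gpr149, Cdh4, Ctla2a, Col4a6, Cldn1, Hsd3b6, Perp and Ptprb. Gpr149, an orphan receptor, had 46.4, 264 and 227 CPM in MEFs and 4 reads in all iMPC libraries, and Cdh4, R-cadherin, had 30.9, 68.3 and 32.5 CPM and then 3 reads (ratio 1628, counting interval 556 to 7899). Cldn1, a tight junction protein, fell from 25, 126 and 97.9 CPM to at most 0.329 CPM.

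By level, the 5 genes that rose most were mt-Co1, Myh3, H19, Myh8 and Igf2. The mitochondrial respiratory gene mt-Co1 rose from 5147, 4248 and 4535 CPM to 16620, 11641 and 15931 CPM (log2 fold change 1.67 with SE 0.32, adjusted p 5.0e-05). H19, an imprinted RNA abundant in foetal muscle, rose from 542, 70.0 and 109 CPM to 9669, 6178 and 9909 CPM. Igf2, its imprinted neighbour, which encodes a growth factor, rose from 346, 272 and 56.4 CPM to 7243, 3998 and 7139 CPM. The 5 that fell most were Fn1, Thbs1, Actg1, Col1a1 and Tnc, of which 4 belong to the matrix or collagen lists. Actg1, cytoplasmic gamma-actin, fell from 4859, 6646 and 5378 CPM to 807, 1001 and 693 CPM (log2 fold change -2.76 with SE 0.38, adjusted p 5.1e-07).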

How the data were processed

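Bulk poly(A) RNA-seq of 45 libraries, made with a strand-keeping TruSeq kit per the labels' protocols, in 15 groups of 3 was deposited as a table of transcripts per library, with kallisto's estimated counts and transcripts per 1000000 (TPM), per the file headers. The submitters' processing notes name bcl2fastq 2.19, Trimmomatic 0.36, kallisto 0.44 and edgeR 3.28. Gene-level values are sums of the authors' estimated counts over all transcripts of a gene (121104 of 121843 transcripts matched the GENCODE vM21 annotation, GRCm38), rounded to whole numbers. A read that fits several genes is divided between them by kallisto: 23342 of 35675 genes had whole counts in all libraries, and related genes such as the myosin heavy chains and actins did not, so their split is less certain. The deposited TPM served only for an alternative scaling. Whether kallisto used the strand is not given in the sources used here.

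Gene counts of all 45 libraries were fitted together in edgeR 4.0.16 (R 4.3.3) with TMM factors and filterByExpr, which left 17325 genes and 30 residual degrees of freedom, and MEFs were contrasted with bulk iMPCs by the quasi-likelihood test. A gene was called at an adjusted p under 0.05 and a fold of at least 2. CPM in the text are counts per 1000000 of the library total multiplied by its TMM factor. Where a group had no read, folds were taken against 3 reads over the group, and with 1 to 3 reads the ratio has an exact 95% counting interval, which covers counting error only. Replicates differed by 30.6 to 126 times sampling noise (chi-square per degree of freedom), so no library was a copy of another. Promoters came from RefSeq (GRCm38.p6). The scripts were tested on simulated counts. Alternatives were other size factors, DESeq2 1.42.0, other filters and fold minimums, thinned counts, TPM scaling, a replicate block and leaving out each library.

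The members and gene lists were chosen with earlier results of these data known. By the rule for named genes, these are the regulators and the fibroblast panel, the genes that remained, the largest and smallest called changes and highest level of each list, members that moved against their list, the 8 largest rises and falls in log2 fold change and the 5 largest in CPM; others were named after their values were seen. Some genes that the rule names are not reported here.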

Additional observations from a re-analysis of the deposited data

How the results depend on the processing

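Across the alternatives that kept the 2-fold minimum, between 4835 and 6456 genes were called between bulk iMPCs and MEFs, against 6142. With no minimum fold 9385 genes were called (4454 lower), and with a 4-fold minimum 3498 (1270 lower). Leaving out 1 library at a time gave 5587 to 6405 genes, with 3190 to 3624 higher and 2291 to 2808 lower. Dropping the genes by which the 4 deepest libraries stand apart, an alternative chosen after seeing the data, left 5991 called. Against primary myoblasts, 1265 genes were called (728 higher, 537 lower) when only the 6 libraries compared were fitted, against 3396, and 2785 to 3902 when 1 library was left out. Of the sarcomere and contraction list, 41 members were higher under every alternative run. At the 4-fold minimum, 2 fibroblast identity members were higher (4 at 2-fold), 5 collagens lower (9 at 2-fold) and 1 muscle stem and progenitor member lower (3 at 2-fold). With no minimum fold, 2 other matrix members were higher (1 at 2-fold). Between 1 and 3 collagens were higher when a library was left out, with 1 without MEF library 2. The genes that had not fallen numbered 43 to 58 at the 2-fold minimum and 62 at the 4-fold minimum.

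Single genes were followed in 3554 alternative values over 188 genes. In 3358 the direction and the side of the threshold were kept, in 99 a call was lost, in 60 one was gained, and in 37 the sign changed. None of the 37 passed the test on either side. With 1 library left out, the log2 fold change ranged from -0.65 to 0.68 for Col3a1, from -3.25 to 0.038 for Pdgfra, from -3.02 to 0.64 for Dcn, from -0.70 to 2.39 for Stmn2 and from -2.04 to 0.82 for Pax3. It ranged from -0.39 to 0.30 for Col6a3, from -0.33 to 0.62 for Fbln1, from -0.50 to 0.60 for Adamts2 and from -1.57 to 0.091 for Myh11. For Tpm1 it lay between -0.065 and 0.22, for Hoxa10 between -3.13 and 0.71, and for Flt1 between -0.71 and 0.31. With only the compared libraries and without MEF library 1, the log2 fold change was 0.63 for Col3a1, 0.25 for Col6a3, 0.57 for Fbln1, -0.042 for Hes1, 0.67 for Hoxa10 and -0.12 for Tpm1. With TPM scaled to library size it was -0.02 for Adamts2, 0.37 for Col6a3, 0.00 for Fbln1 and -0.26 for Hes1. Without the filter on low counts it was 0.059 for Fbln1. The cause of these changes was not tested.

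The replicate numbers are shared by both groups, but the labels do not say that a number marks a shared embryo or day. Deviations of same-numbered libraries from their group means correlated across genes at -0.094, -0.028 and 0.013 for numbers 1, 2 and 3. Such values cannot exclude a shared embryo or line, since other differences between libraries also enter them. Sex went with the number in both groups, with number 3 apart from 1 and 2. Pairing was thus not settled, and the main fit did not use the numbers as pairs. With the replicate block, 4835 genes were called in the 6 libraries compared and 6456 in the 39 fibroblast-derived libraries. The block turned the log2 fold change of Dcn to -1.51 in the 6 libraries. In the 6 and in the 39 libraries it gave 0.005 and 0.14 for Col6a3, 0.13 and 0.17 for Fbln1, and -0.30 and -0.25 for Adamts2. In the 6 libraries the block ended the calls of Lum (adjusted p 0.055), Hoxd13 (0.15), Lhx9 (0.12), Osr1 (0.30), Shox2 (0.068), Kif11 (0.14), Cdkn2b (0.058), Hoxa4 (0.051) and Cd68 (0.15). There Vcan (0.039), Loxl2 (0.031), Mmp2 (0.041) and Tagln2 (0.022) were called lower and Tbx3 (0.0079) higher. In the 39 libraries the call of Hoxd13 ended (0.065). Those gained there were Prrx2 (0.0025), Lox (0.0064), Loxl2 (0.0056), Mmp2 (0.021) and Timp3 (0.027), which were lower, and Stmn2 (0.040), Mef2d (3.2e-05), Tbx3 (0.0033) and Top2a (0.035), which were higher.

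No alternative bears on whether the 3 libraries of a group came from separate cultures. By sex, library 3 of each group came from other cells than libraries 1 and 2. Whether libraries 1 and 2 had separate sources is not known.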
